A study of Mus musculus with 24 samples.

Results

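The genes described here are H4c9 and 6 further histone genes whose mRNA was read in the kidneys of mice after myocardial infarction (MI): H1f0, H1f2, H2az1, H3f3a, H3f3b and H2bc4. They were chosen by name, with their expression in these kidneys already known, and are 7 of the 56941 genes in the count table and 7 of its 84 protein-coding histone genes. All 7 passed the filter on low counts. Their levels and differences between the groups are therefore given as a description, and calls that a fit over all genes made on them are counted but support nothing.

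The study sequenced kidney RNA of male wild-type C57BL/6J mice that were 8 to 11 weeks old at surgery. In the MI groups the left anterior descending coronary artery (LAD) was ligated permanently, and sham-operated mice had the same surgery without ligation. Kidneys were taken 5d or 28d after ligation, and the sham kidneys, all taken 5d after surgery, were the controls for both times. The labels list 24 kidneys, of which 22 were used: 8 from sham mice, 8 from mice 5d post-MI and 6 from mice 28d post-MI. No sham kidney was taken at 28d, so the time after surgery and the mouse's age cannot be told apart from MI at 28d against sham. Between 28d and 5d post-MI both groups had MI. Time after MI, time after surgery and age cannot be told apart there. The model is an injury of the heart, and the kidney itself was not operated on.

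Histones are the proteins around which DNA is wound. In dividing cells most histone protein comes from clustered, replication-dependent genes, whose mRNA ends in a short stem-loop instead of a poly(A) tail. Replacement histones such as H3.3 and H2A.Z are made throughout the cell cycle from ordinary polyadenylated mRNA, and some replication-dependent genes also give rise to a polyadenylated form when transcription runs past the stem-loop, which is known from cells that have stopped dividing. The libraries were made by Massive Analysis of cDNA Ends (MACE), which primes on poly(A) with oligo(dT) and reads the 3′ ends of mRNA with a unique molecular identifier on each molecule. Histone mRNA without a poly(A) tail is therefore outside what was measured.

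H4c9 (ENSMUSG00000060639, named Hist1h4i in GENCODE) encodes histone H4 and lies on chromosome 13 from 22040636 to 22041362 on the minus strand in the GENCODE M21 annotation of GRCm38. It is a single exon of 727 bases, and no other annotated gene overlaps it. H1f2 (Hist1h1c, chromosome 13, 23738808 to 23740367, plus strand) encodes a linker histone H1 and is also a single exon. Both belong to the replication-dependent class by name and hold the histone stem-loop after the stop codon, and in both the GENCODE transcript runs on past it, by 330 bases in H4c9 and by 840 bases in H1f2. The stem-loops are shown because they are where a replication-dependent histone mRNA would end. The stem-loop of H4c8, the other H4 gene with enough counts to be tested, is shown for comparison. The H4c8 transcript ends 46 bases past the stem-loop and has a poly(A) signal (AATAAA or its variant ATTAAA) 26 bases before its end. Capitals mark the 16 bases that match the pattern searched (GG, any 2 bases, CTT, any base, T, any base, AG, any 2 bases, CC), and the flanks of 7 bases are in lower case:
H4c9 stem-loop: acttaaaGGCCCTTTTTAGGGCCaccacaa
H1f2 stem-loop: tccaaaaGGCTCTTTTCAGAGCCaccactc
H4c8 stem-loop: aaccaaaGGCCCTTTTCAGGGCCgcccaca

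The pattern was found in 209 of 58797 protein-coding transcripts of GENCODE M21 (0.356%). The RefSeq model of H4c9 is shorter, with 403 bases from 22040960 to 22041362, and ends 6 bases past the stem-loop. That of H1f2 ends 4 bases past it. The GENCODE transcripts of both genes end with a poly(A) signal, AATAAA or its variant ATTAAA, 15 bases before the end in H4c9 and 20 bases before the end in H1f2. The counts do not show at which of these ends a read began. The last 30 bases of both transcripts, with the signal in capitals, are shown next because they are the polyadenylated ends that the library could read:
H4c9 end: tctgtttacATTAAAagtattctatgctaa
H1f2 end: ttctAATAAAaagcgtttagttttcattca

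The other 5 genes hold no stem-loop after the stop codon in these transcripts. H2bc4 (Hist1h2bc, chromosome 13, 23684199 to 23692908, plus strand) is a replication-dependent H2B gene by name, but its GENCODE transcript has 2 exons and 742 bases after the stop codon. H1f0 (chromosome 15, 79028450 to 79030504, plus strand) encodes the linker histone H1.0, known from cells that have stopped dividing. H2az1 (chromosome 3, 137864487 to 137866922, plus strand) encodes the variant H2A.Z. H3f3a (chromosome 1, 180800832 to 180813943, minus strand) and H3f3b (chromosome 11, 116021912 to 116027962, minus strand) encode histone H3.3. In their longest GENCODE transcripts, H1f0, H2az1 and H3f3a have a poly(A) signal within 30 bases of the end. H3f3b and H2bc4 have none there. The ends of H1f0 and H3f3a, with the signal in capitals, are shown to set them beside those of H4c9 and H1f2:
H1f0 end: aactttaaAATAAAactggaaaggaaaaaa
H3f3a end: tgaaaaatAATAAAagtaccaatagaagaa

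Histone genes resemble each other, so reads can be shared. Of the 678 stretches of 50 bases in the H4c9 transcript, 196 also occur in transcripts of other genes (28.9%), but none of the 281 stretches that lie after the stem-loop does. In H1f2, 129 of 1511 stretches are shared and none of the 791 after the stem-loop. In H2az1, H3f3b and H1f0 no stretch after the stop codon is shared. In H3f3a, 78 of 2196 and in H2bc4, 8 of 693 stretches after the stop codon occur elsewhere. An antisense gene overlaps H1f0 (Gm49544) and another overlaps H3f3a (H3f3aos), and the strand setting of the counting is not given in the sources used here.

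Of the 84 histone genes, 69 had a count in at least 1 kidney and 19 passed the count filter, the 7 described here and 12 others. The replication-dependent class holds 67 of the 84 genes, and 9 of these 67 were tested. Among the 23 with a stem-loop and a GENCODE transcript that ends more than 100 bases past it, 22 had a count and 6 were tested. Among the 23 whose transcripts end within 100 bases of the stem-loop, 19 had a count and 1, H4c8, was tested. In the remaining 21 no stem-loop was found after the stop codon in any protein-coding transcript. Of these, 14 had a count and 2 were tested, H2bc21 and H2bc4, which had the most counts of the class (17777 over all kidneys). All histone genes together held 0.137% to 0.185% of a kidney's reads.

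Total counts per kidney ranged from 2280618 to 3786275. Expression is given as CPM, the counts of a gene per 1000000 counts of a library whose size was normalized by TMM, and fold changes come from the edgeR fit of all 22 kidneys. The 12 kidney marker genes of the list used (Lrp2, Umod, Aqp2 and others) were all tested and together took 51443 to 60352 CPM in sham kidneys, 36883 to 67605 CPM at 5d post-MI and 62802 to 70960 CPM at 28d post-MI. Most of this sum was 1 gene, Kap, with means of 48618, 48707 and 58960 CPM in the same order. The means of the sum were 57044, 57102 and 67740 CPM. All 12 markers were higher at 28d post-MI than in sham kidneys, 4 of them at an unadjusted p-value under 0.05 and none called by edgeR. Of all 12780 tested genes, 569 were higher at that threshold. The part of the kidney markers in the results was not tested. Adrenal cortex genes, 8 of which were listed and 1 (Cyp11b2) of which was at 0 in every kidney, summed to 811 and 657 CPM in sham kidneys 2 and 6, to 82.0 CPM in kidney 5 at 5d post-MI and to between 5.69 and 10.5 CPM in the other 19 kidneys. Values without sham kidneys 2 and 6 are given where they bear on a result. In whole kidney tissue, fewer cells of a type and less RNA per cell cannot be told apart.

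Of the 7 genes, H4c9 had the log2 fold changes farthest from 0 in all 3 comparisons. In sham kidneys it was between 13.9 and 29.8 CPM, with a median of 21.2 CPM and 37 to 94 reads per kidney. At 5d post-MI it was between 8.04 and 18.2 CPM, with a median of 11.7 CPM and 19 to 62 reads. At 28d post-MI it was between 20.3 and 54.5 CPM, with a median of 45.3 CPM and 51 to 174 reads. All 6 kidneys at 28d post-MI were above all 8 kidneys at 5d post-MI, an order without overlap that 0.25% of all tested genes had, 5 of the 6 were above every sham kidney, and 6 of the 8 kidneys at 5d post-MI were below every sham kidney.

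Means ± SD of H4c9 over the 8 sham, 8 5d and 6 28d kidneys were 20.7 ± 5.70, 11.9 ± 3.48 and 41.2 ± 13.9 CPM. The log2 fold change against sham was −0.78 (SE 0.24) after 5d and 0.99 (SE 0.21) after 28d. Both comparisons use the same sham kidneys. Between 28d and 5d post-MI the log2 fold change was 1.77 (SE 0.23), a 3.41-fold difference. The lowest kidney at 28d post-MI, kidney 6, had 20.3 CPM, close to the sham mean, and the other 5 kidneys of its group had 30.1 to 54.5 CPM.

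Without sham kidneys 2 and 6, whose H4c9 levels of 13.9 and 14.0 CPM were the lowest of the sham group, the sham mean was 23.0 ± 4.58 CPM (SD, n = 6). The log2 fold changes were then −0.91 (SE 0.24) at 5d post-MI and 0.86 (SE 0.22) at 28d post-MI against sham. Leaving out any 1 kidney gave between −0.90 and −0.69 at 5d post-MI against sham, between 0.89 and 1.13 at 28d post-MI against sham and between 1.66 and 1.90 for 28d against 5d post-MI.

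Of the 7 genes, edgeR's quasi-likelihood test with Benjamini-Hochberg adjustment over 12780 genes called 0 at 5d post-MI against sham, where 0.0704% of all tested genes were called. It called 0 at 28d post-MI against sham, where the share of all genes was 0.0235%. Between 28d and 5d post-MI it called 1, H4c9, where the share was 0.415%. At an unadjusted p-value under 0.05, 2 of the 7 genes passed at 5d post-MI (H4c9 and H2az1, against 7.90% of all genes), 1 at 28d post-MI (H4c9, against 8.68%) and 4 between the times (H4c9, H1f2, H3f3b and H2bc4, against 9.05%). DESeq2 called H4c9 alone in each of the 3 comparisons, and limma's voom called it in both comparisons with the 28d group. Since the genes were chosen from these comparisons, the calls are no independent evidence.

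**Figure D1:**
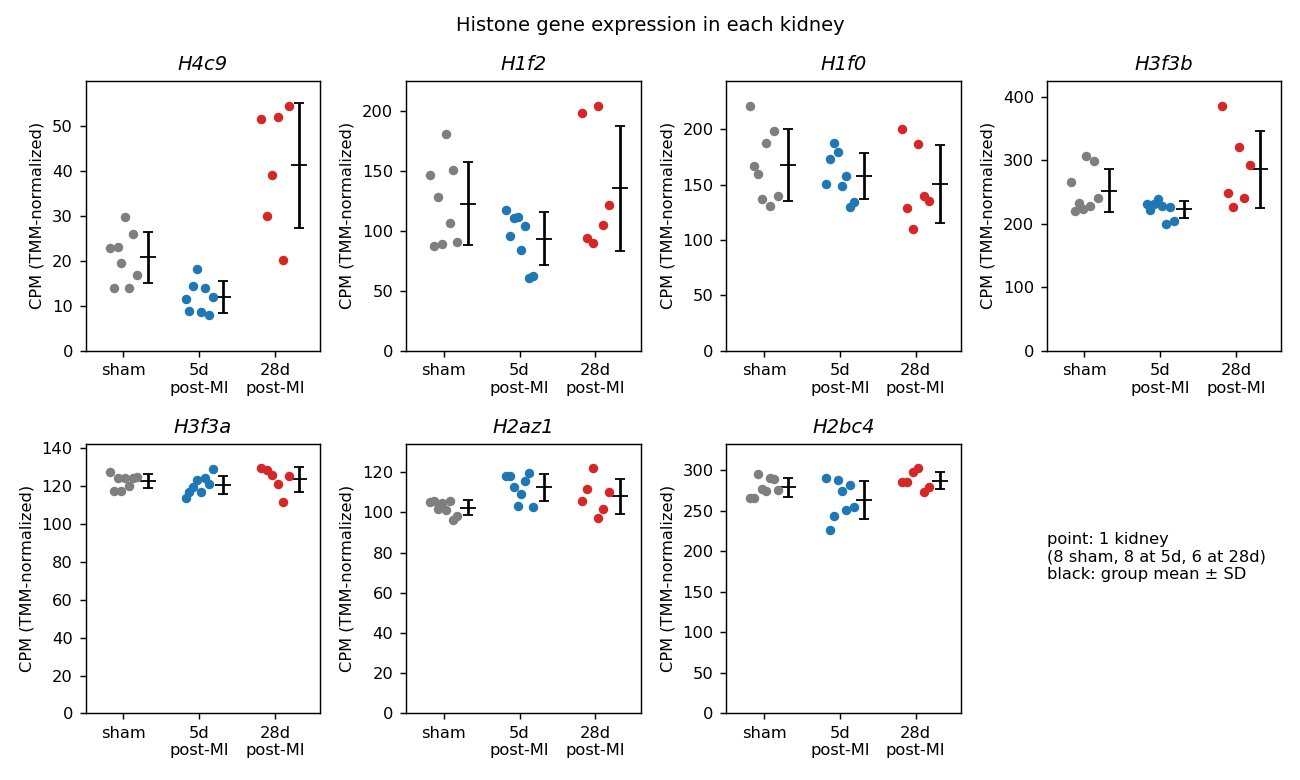
Expression of the 7 histone genes in CPM (y axis, from 0) in each kidney, by group (x axis), with 1 point a kidney and the group mean ± SD in black. H4c9 ranges from 8.04 to 18.2 CPM at 5d post-MI and from 20.3 to 54.5 CPM at 28d post-MI with no overlap, while H3f3a lies between 112 and 130 CPM in all 22 kidneys.

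The table holds 12 H4 genes beside H4c9, which encode the same core histone. Summed over all 13 H4 genes, the mean ± SD was 48.3 ± 7.38 CPM for sham (n = 8), 36.0 ± 5.82 CPM for 5d (n = 8) and 68.5 ± 17.6 CPM for 28d (n = 6). Without H4c9, the sum of the other 12 was 27.5 ± 4.32, 24.1 ± 5.29 and 27.3 ± 3.91 CPM in the same order, and all 3 groups overlapped. Most of that remainder was H4c8, whose means for sham, 5d and 28d were 18.5, 17.4 and 16.04 CPM. Between 28d and 5d, H4c8 had a log2 fold change of −0.09 (SE 0.15, adjusted p = 0.919 from edgeR), so that this neighbour in the H4 family did not pass the test.

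The share of H4 counts that fell on H4c9 does not depend on the library size, but the counts of the other H4 genes enter it too. For sham the share was 42.6 ± 7.82% (SD, n = 8, range 31.6% to 54.7%). For 5d post-MI it was 33.3 ± 8.28% (SD, n = 8, range 21.6% to 44.6%). For 28d post-MI it was 58.9 ± 6.42% (SD, n = 6, range 47.2% to 64.7%). The ranges at 5d and 28d post-MI did not overlap, whereas both overlapped that of the sham kidneys.

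The other 11 H4 genes, none of them tested, summed to means ± SD of 9.08 ± 2.55 (sham, n = 8), 6.71 ± 1.56 (5d, n = 8) and 11.3 ± 2.24 CPM (28d, n = 6). One of them, H4f16 (Hist4h4, chromosome 6, 136801553 to 136804415, minus strand), had 64 counts in all and was named after its values were seen. It had 0 to 5 counts in a sham kidney, 0 to 2 after 5d and 2 to 13 after 28d of MI, or 0.660 ± 0.495, 0.161 ± 0.234 and 2.61 ± 1.40 CPM. Without the filter on low counts, edgeR gave a log2 fold change of 3.66 (adjusted p = 7.77e-07) between 28d and 5d post-MI, and DESeq2 gave 3.96 (adjusted p = 0.000627). These values rest on few reads, since 5 of the 8 kidneys at 5d post-MI had none. Like H4c9, H4f16 has a GENCODE transcript that runs past its stem-loop, by 2445 bases, but this is not particular to H4c9 and H4f16. The transcripts of H4c1, H4c11, H4c3, H4c4 and H4c14 run on by 108, 385, 454, 770 and 1257 bases. Those of H4c17, H4c2, H4c18, H4c6 and H4c8 end 3 to 46 bases past the stem-loop, and that of H4c12 holds none. Any link between the transcript's end and the level was not tested.

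**Figure D2:**
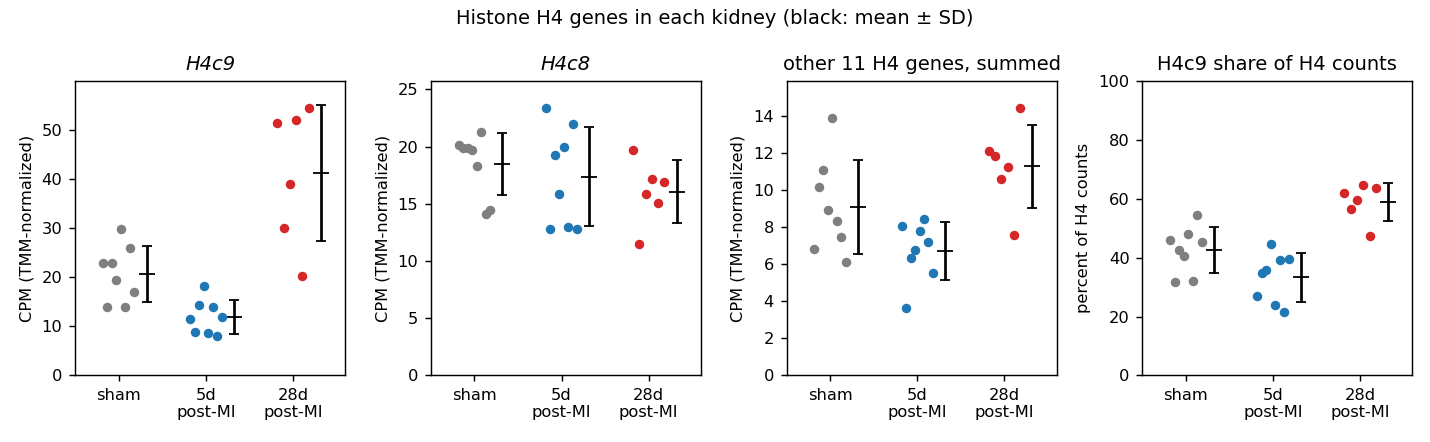
Levels of H4c9, of H4c8 and of the sum of the other 11 H4 genes in CPM, and H4c9 as a percentage of all H4 counts (y axes, from 0), in each kidney by group, with the group mean ± SD in black. H4c9 and its share separate the 5d from the 28d kidneys, and H4c8 overlaps in all 3 groups.

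H1f2 encodes a linker histone, which binds the DNA between nucleosomes. In sham kidneys it was between 87.9 and 181 CPM, with a median of 118 CPM. At 5d post-MI it was between 60.5 and 118 CPM, with a median of 100.1 CPM, and at 28d post-MI it was between 90.3 and 205 CPM, with a median of 113 CPM. Kidneys 1 and 4 of the 28d group, with 198 and 205 CPM, stood above every other kidney, and the remaining 4 kidneys of that group, with 90.3 to 122 CPM, lay within the sham range. The log2 fold change of H1f2 was −0.39 (SE 0.21) at 5d post-MI against sham, 0.14 (SE 0.23) at 28d post-MI against sham and 0.53 (SE 0.23) between the times. Without kidney 4 of the 28d group, the value at 28d post-MI against sham was −0.01.

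The same 4 sham kidneys, numbers 1, 3, 5 and 7, held the highest levels of H1f2 (128 to 181 CPM) and of H4c9 (23.0 to 29.8 CPM) in their group. The remaining 4 sham kidneys had 87.9 to 107 CPM of H1f2 and 13.9 to 19.4 CPM of H4c9. The numbers are only names, and the labels give no further difference between these kidneys. The summed immediate early genes of the next paragraphs were at 2006, 1429, 1854 and 1583 CPM in sham kidneys 1, 3, 5 and 7. In sham kidneys 2, 4, 6 and 8 the sums were 867, 1615, 1596 and 1019 CPM. Sham kidneys 2 and 6 were also those with adrenal cortex sums of 811 and 657 CPM. The relation of either sum to this division of the sham kidneys was not tested.

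The other linker histone gene, H1f0, was between 131 and 222 CPM in sham kidneys, between 130 and 187 CPM at 5d post-MI and between 110 and 200 CPM at 28d post-MI. The 3 groups overlapped, and the log2 fold changes against sham were −0.09 (SE 0.13) and −0.16 (SE 0.14) at 5d and 28d post-MI. Kidneys 1 and 4 of the 28d group were again the highest of their group, with 200 and 187 CPM. Over the 22 kidneys Pearson's r between H1f0 and H1f2 was 0.70 (Spearman's rho 0.70), and 0.84 after the group means were subtracted.

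H3f3b and H3f3a encode the same H3.3 protein. H3f3b was between 221 and 307 CPM in sham kidneys (median 236 CPM), between 200 and 239 CPM at 5d post-MI (median 227 CPM), and between 226 and 386 CPM at 28d post-MI (median 270.5 CPM). Its log2 fold change was −0.18 (SE 0.10) and 0.18 (SE 0.10) against sham at 5d and 28d post-MI, and 0.36 (SE 0.10) between the times, where 5 of 6 kidneys at 28d post-MI were above all 8 at 5d post-MI. Without kidney 1 of the 28d group, which had 386 CPM, the value at 28d post-MI against sham was 0.074. The level of H3f3a was between 112 and 130 CPM in all kidneys, with log2 fold changes of −0.02 (SE 0.05), 0.01 (SE 0.05) and 0.04 (SE 0.05) in the same order.

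H2az1 was the only one of the 7 genes with a higher mean at 5d post-MI than in sham kidneys. It was between 96.3 and 106 CPM in sham kidneys, with a median of 103 CPM, and between 103 and 120 CPM at 5d post-MI (median 114 CPM). Of the 8 kidneys at 5d post-MI, 6 were above every sham kidney, for a log2 fold change of 0.14 (SE 0.05). At 28d post-MI it was between 97.2 and 122 CPM, and the log2 fold change against sham was 0.08 (SE 0.06). The related H2az2 had a log2 fold change of 0.09 (SE 0.06, adjusted p = 0.748 from edgeR) at 5d post-MI.

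H2bc4 was between 265 and 295 CPM in sham kidneys, between 226 and 290 CPM at 5d post-MI and between 273 and 302 CPM at 28d post-MI. Its log2 fold changes were −0.08 (SE 0.05), 0.04 (SE 0.05) and 0.12 (SE 0.05), and 4 of the 8 kidneys at 5d post-MI were below every sham kidney. The other 17 H2B genes summed to means ± SD of 19.1 ± 4.50 (sham, n = 8), 13.2 ± 3.86 (5d, n = 8) and 22.4 ± 7.46 CPM (28d, n = 6). All 3 groups of this sum overlapped.

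The 12 tested histone genes outside the 7 were the 6 replication-dependent genes H2bc6, H2bc21, H3c15, H1f4, H2aw and H4c8 and the 6 replacement genes H2aj, H2ax, H2az2, Macroh2a1, Macroh2a2 and H1f10. None was called by edgeR in any of the 3 comparisons. At an unadjusted p-value under 0.05, H2bc6 and H2bc21 passed at 5d post-MI, none at 28d post-MI against sham, and H2bc6, H2aw, H3c15 and H2bc21 between the times. The shares of all tested genes that passed were 7.9%, 8.68% and 9.05%. DESeq2 called 0, 0 and 2 histone genes outside the 7 in the same order, H4f16 and H2bc6, and limma's voom called none.

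All 6 replication-dependent genes had negative log2 fold changes at 5d post-MI (median −0.38), while 6401 of all 12780 genes were higher and the median of all genes was 0.00018. Between 28d and 5d post-MI, 5 of the 6 had positive values, with a median of 0.47 against −0.0046 for all genes, and H4c8 was the exception. The 6 replacement genes had medians of 0.0040 at 5d post-MI and −0.10 between the times. The difference between the classes was not tested.

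H2bc6 came closest to H4c9 in size among these 12 genes. It encodes an H2B histone, and its GENCODE gene (Hist1h2be, chromosome 13, 23583670 to 23621124, minus strand) spans other histone genes, so that its reads are uncertain. In sham kidneys it was between 1.14 and 9.93 CPM, at 5d post-MI between 0.611 and 4.27 CPM and at 28d post-MI between 1.99 and 13.8 CPM. The log2 fold change between the times was 1.76 (SE 0.43, adjusted p = 0.0746 from edgeR), and 5 of the 6 kidneys at 28d post-MI were above all 8 at 5d post-MI. Its adjusted p-value was under 0.05 with DESeq2 (0.00405), without the filter (0.00350), without edgeR's robust option (0.0265), without sham kidneys 2 and 6 (0.0218), and when sham kidney 6 (0.0435) or kidney 6 of the 28d group (0.0153) alone was left out.

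**Figure D3:**
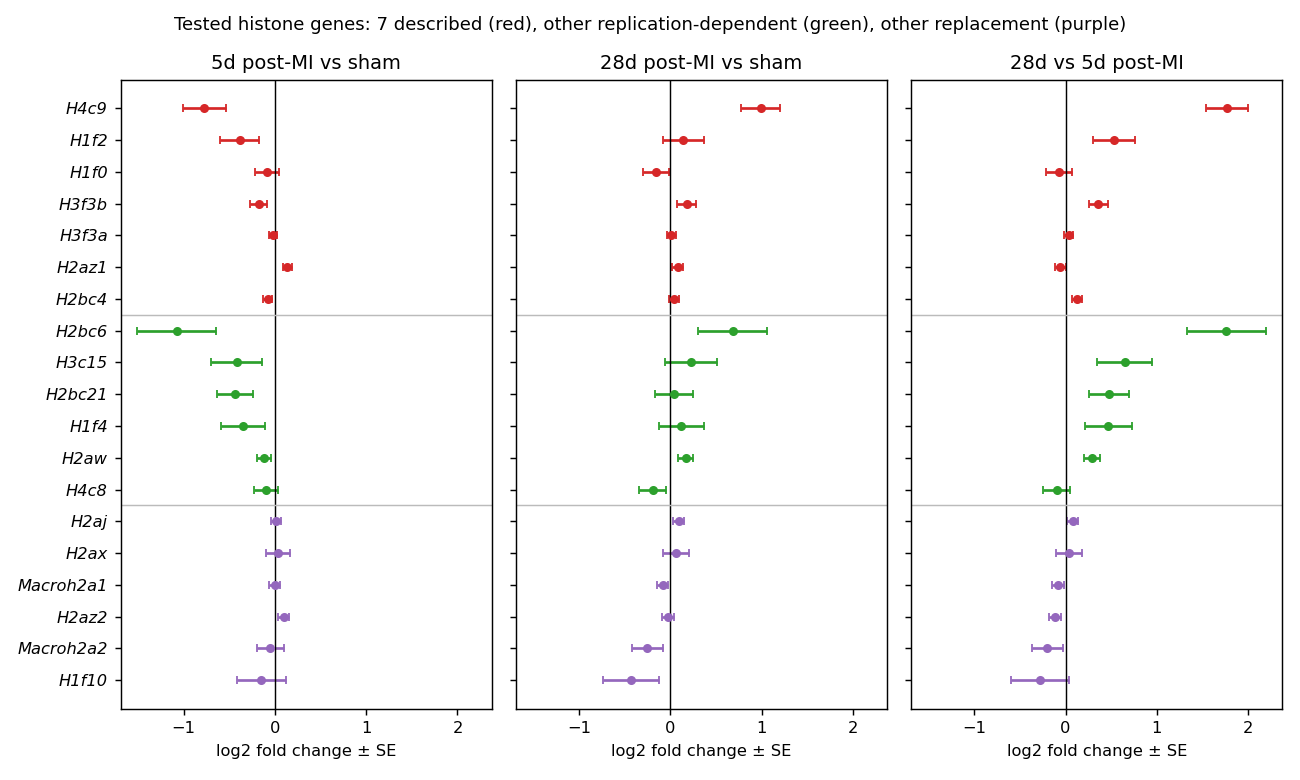
Log2 fold change ± SE (x axis) of the 19 tested histone genes (y axis) in the 3 comparisons, with the 7 described genes in red, 6 other replication-dependent genes in green and 6 other replacement genes in purple. H4c9 and H2bc6 have the highest values between 28d and 5d post-MI, 1.77 and 1.76, and the purple genes lie between −0.28 and 0.08 there.

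Genes that act on histone mRNA or on histone supply were described by lists. No gene of the 5 lists was called by edgeR in any comparison. Of 17 tested genes for stem-loop histone mRNA processing, 1 was higher and 1 lower at an unadjusted p-value under 0.05 at 5d post-MI, none passed at 28d post-MI against sham and 1 was higher between the times, with list medians of −0.02, −0.01 and −0.0030. Of all tested genes, 7.9%, 8.68% and 9.05% passed in the same order. Slbp, which binds the stem-loop, was at 16.6 CPM in sham kidneys, 13.1 CPM at 5d post-MI and 16.1 CPM at 28d post-MI, with a log2 fold change of −0.32 (SE 0.13, adjusted p = 0.514 from edgeR) at 5d post-MI. Cstf2t, a cleavage stimulation factor, had a log2 fold change of 0.24 (SE 0.10, adjusted p = 0.549 from edgeR) at 5d post-MI.

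Of 15 tested genes for poly(A) addition and binding, Pabpc1 had the lowest p-value at 5d post-MI and between the times, with a log2 fold change of 0.10 (SE 0.05, adjusted p = 0.633 from edgeR) at 5d post-MI against sham and −0.15 (SE 0.05, adjusted p = 0.274 from edgeR) between the times. It encodes the main cytoplasmic poly(A)-binding protein. Of 27 tested histone chaperones and exchange factors, 1 passed at an unadjusted p-value under 0.05 in each comparison, a smaller share than among all genes. These were Ubn1, a subunit of the H3.3 chaperone complex HIRA, at 5d post-MI (log2 fold change −0.16, SE 0.08), Cabin1, another subunit of it, at 28d post-MI against sham (−0.27, SE 0.11) and the nucleolar chaperone Npm1 between the times (−0.21, SE 0.09). Their adjusted p-values from edgeR were 0.622, 0.504 and 0.414.

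DNA replication and cell cycle genes accompany the replication-dependent histones in dividing cells. Of the 27 tested, 7 were higher and 20 lower at 28d post-MI against sham, with a median log2 fold change of −0.19 against −0.0012 for all genes. At an unadjusted p-value under 0.05, Tyms (−0.29, SE 0.13) and Mcm2 (−0.29, SE 0.14) passed, with adjusted p-values from edgeR of 0.540 and 0.562, and 2 of 27 is close to the 8.68% of all genes. Between the times, Uhrf1 had the lowest p-value, with a log2 fold change of −0.99 (SE 0.34, adjusted p = 0.272 from edgeR). The sum of the 39 listed genes had means ± SD of 371 ± 18.9 (sham, n = 8), 351 ± 33.7 (5d, n = 8) and 346 ± 20.7 CPM (28d, n = 6). Of 7 tested cell cycle inhibitors, Rb1 had a log2 fold change of −0.31 (SE 0.12, adjusted p = 0.452 from edgeR) at 28d post-MI against sham.

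The genes whose level was most like that of H4c9 over the 22 kidneys were sought among all 12780 tested genes by Pearson's r of log2 CPM with a prior count of 2. The 5 highest were Dusp6 (r = 0.87, Spearman's rho 0.85), Jun (r = 0.87, rho 0.89), Tob1 (r = 0.86, rho 0.84), Ier2 (r = 0.84, rho 0.85) and Ier5l (r = 0.84, rho 0.80). After the group means were subtracted, r was 0.90, 0.65, 0.63, 0.56 and 0.64 in this order. Kidneys of 1 group share a treatment and time, so these values describe the 22 kidneys and carry no test. Dusp6 encodes a phosphatase of the MAP kinase ERK, Jun a subunit of the transcription factor AP-1 and Ier2 an immediate early response protein.

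Levels of Dusp6 averaged 46.2 ± 9.96 (sham, SD, n = 8), 39.6 ± 6.44 (5d, SD, n = 8) and 53.4 ± 8.59 CPM (28d, SD, n = 6). Its groups overlapped, and its likeness to H4c9 was as high within the groups as over all kidneys. Tob1, which encodes an antiproliferative protein, was at 160 ± 19.1, 124 ± 18.2 and 196 ± 36.3 CPM in the same order.

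Immediate early genes are transcribed within minutes of a stimulus, before new protein is made. The list of them was drawn up as a sign of tissue handling, not of a cell type. The paper states that the mice underwent hemodynamic measurement and were then killed and their organs removed. The part of these steps in the levels was not tested. The 11 listed genes summed to 867 to 2006 CPM in sham kidneys. Their sums were 199 to 926 CPM at 5d post-MI and 1295 to 3160 CPM at 28d post-MI. None of the 11 was called at 5d post-MI against sham by edgeR, although all 11 were lower with an unadjusted p-value under 0.05 (median log2 fold change −1.50), against 3.97% of all genes. Between 28d and 5d post-MI all 11 were higher (median 1.998) and 10 were called, where 0.336% of all tested genes were called higher. Among them were Fos (log2 fold change 2.14, SE 0.39, adjusted p = 0.0109 from edgeR), Egr1 (2.10, SE 0.41, adjusted p = 0.0206) and Atf3 (2.06, SE 0.36, adjusted p = 0.00287), and Fosb alone did not pass (2.84, SE 0.64, adjusted p = 0.0588).

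Against sham at 28d post-MI all 11 immediate early genes had positive log2 fold changes with a median of 0.44, and none was called. At an unadjusted p-value under 0.05, 4 passed (Jun, Ier2, Atf3 and Dusp1), where 569 of all 12780 tested genes were higher. H4c9 had 0.99 in that comparison, above 10 of the 11 genes and close to Atf3 with 1.001 (SE 0.31). Over the 22 kidneys r between H4c9 and the log2 of the summed list was 0.81, and 0.50 after the group means were subtracted. For H1f2 the values were 0.68 and 0.59, for H3f3b 0.65 and 0.41 and for H2bc4 0.66 and 0.47. By contrast, H1f0 had 0.14 and 0.33, H3f3a had 0.27 and 0.10 and H2az1 had −0.51 and −0.36. The part of the immediate early genes in the level of H4c9 was not tested.

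**Figure D4:**
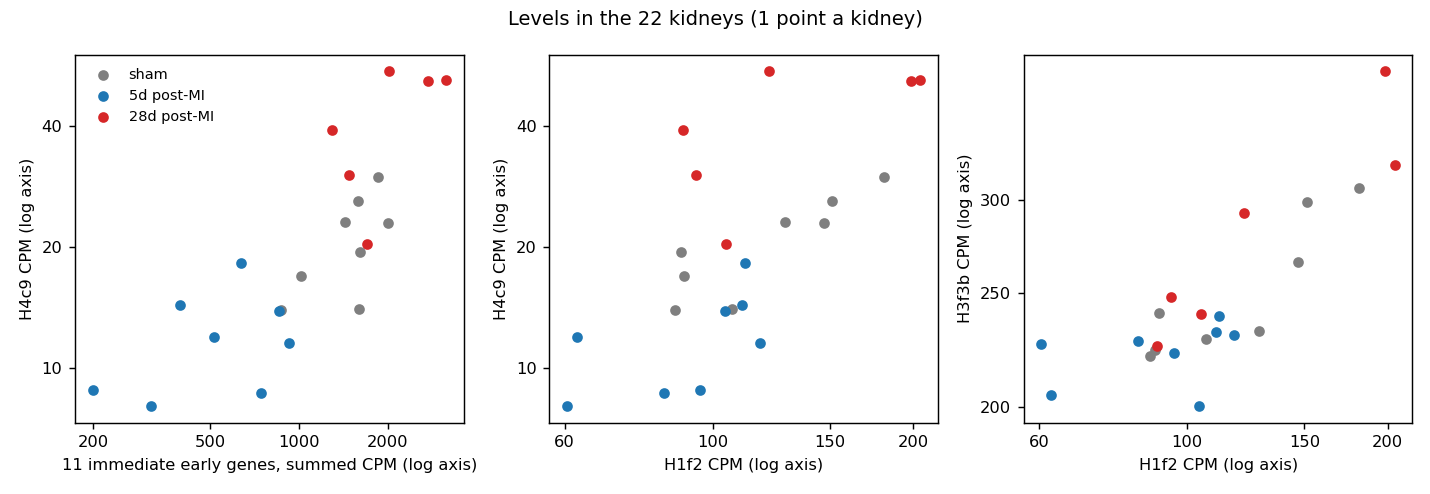
Left, H4c9 against the summed CPM of 11 immediate early genes, middle, H4c9 against H1f2, and right, H3f3b against H1f2, in the 22 kidneys (all axes logarithmic, in CPM, 1 point a kidney, coloured by group). The 4 sham kidneys highest in H4c9, with 23.0 to 29.8 CPM, are also the 4 highest in H1f2, with 128 to 181 CPM.

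Among the 7 genes, the highest r over the 22 kidneys was that of H1f2 and H3f3b, with 0.83 (rho 0.79), and 0.79 after the group means were subtracted, where H1f0 and H1f2 had 0.84. H4c9 had r = 0.76 with H3f3b and 0.69 with H1f2, and 0.61 and 0.69 within the groups. With H1f0 it had 0.16 over all kidneys and 0.54 within the groups, and with H4c8 it had −0.10 and 0.0096. H2az1 had negative values with each of the other 6 genes, between −0.14 and −0.43. H4c9 was also alike to the summed replication-dependent histone genes outside the 7 (0.84, and 0.68 within the groups) and not to the summed replacement genes (−0.14 and −0.01).

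Markers of other cells and tissue also moved with the groups. Red blood cell genes summed to 2285 to 4221 CPM in sham kidneys, 5071 to 19257 CPM at 5d post-MI and 1876 to 5229 CPM at 28d post-MI. All 8 tested were higher at 5d post-MI than in sham kidneys, and 4 were called, where 0.0548% of all genes were called higher. All 8 were lower at 28d than at 5d post-MI. The same 4 globin genes (Hbb-bs, Hbb-bt, Hba-a1 and Hba-a2) were called there, where 0.0782% of all genes were called lower. H4c9 and the log2 of this sum had r = −0.78 over the kidneys and −0.39 within the groups. B and plasma cell genes summed to 36.8 to 119 CPM, 27.0 to 168 CPM and 188 to 294 CPM in the same order of groups, with Mzb1 at 0 in every kidney. All 4 tested were higher at 28d than at 5d post-MI, and edgeR called Igkc and Jchain, where 0.336% of all genes were called higher. Between H4c9 and the log2 of this sum, r was 0.60 over the kidneys and −0.04 within the groups. The lists for adipocytes (6 of 7 tested), brown adipocytes (5 of 6) and leukocytes (5 of 12) held no called gene in any comparison by edgeR. At 28d post-MI against sham all 5 brown adipocyte genes were lower at an unadjusted p-value under 0.05 (median log2 fold change −1.93), and the list summed to 76.3 to 467 CPM in sham kidneys, 58.9 to 351 CPM in the 5d group and 70.0 to 158 CPM in the 28d group. All 6 adipocyte genes were lower there too, 4 of them at an unadjusted p-value under 0.05 (median −0.94), with sums of 389 to 1966, 194 to 1438 and 381 to 987 CPM. Of all 12780 tested genes, 540 were lower at that threshold at 28d post-MI against sham. The leukocyte list summed to 84.1 to 111, 68.3 to 108 and 75.2 to 116 CPM. The r of H4c9 with the log2 sums was −0.21 for brown adipocytes, 0.05 for adipocytes and 0.33 for leukocytes. Within the groups it was 0.08, 0.39 and −0.04 in the same order. The part of these cells in the level of H4c9 was not tested.

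The promoters of H4c9 and H1f2 are shown because both genes were highest in the same sham kidneys, but any link was not tested. They are the 150 bases before the start in RefSeq on GRCm38.p6, H4c9 at chr13:22041363-22041512 on the minus strand and H1f2 at chr13:23738657-23738806 on the plus strand. Capitals mark TATAAA and CCAAT on either strand, which do not overlap each other here:
H4c9 promoter: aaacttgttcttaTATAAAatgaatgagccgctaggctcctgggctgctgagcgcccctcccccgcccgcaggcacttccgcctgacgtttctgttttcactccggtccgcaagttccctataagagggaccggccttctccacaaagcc
H1f2 promoter: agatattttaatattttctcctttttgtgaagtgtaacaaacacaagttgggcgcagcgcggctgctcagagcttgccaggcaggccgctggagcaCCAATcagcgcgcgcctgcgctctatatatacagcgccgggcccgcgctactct

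In windows from 250 bases before to 50 bases after the start, CCAAT was found in 12289 of 32851 promoters (37.4%) and TATAAA in 4473 (13.6%). Among replication-dependent histone genes with a promoter in the table, 52 of 61 held CCAAT and 35 of 61 held TATAAA. Among replacement histone genes, 12 of 16 held CCAAT and 1 of 16 held TATAAA. H4c9 held no CCAAT and 1 TATAAA, 137 bases before the start, and H1f2 held 1 CCAAT, 54 bases before the start, and no TATAAA. H4c8 held neither. Of the replacement genes described here, H3f3b held 4 CCAAT, H2az1 held 3, H3f3a held 1 and H1f0 held none. H3f3b also held 1 TATAAA, 27 bases before the start, and the others held none. These letters are a description of the window only.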

How the data were processed

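MACE libraries of 24 kidneys are listed in the labels. The authors trimmed the reads, mapped them, used HTSeq for counting and deposited whole-number counts per gene and kidney without normalization, beside values scaled to the library's total count (CPM), which were not used. The submitters' processing notes name cutadapt, FastQC, Bowtie2, HTSeq and DESeq2 and the build mm39, whereas the methods name mm10; positions here are those of GENCODE M21 (GRCm38), which holds 51948 of the 56941 identifiers. Of 48 value columns, 4 share a name between kidneys of different groups and were left out.

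The 7 genes and all gene lists were chosen with earlier results of these data known. Counts of 22 kidneys (2280618 to 3786275 per kidney) were filtered by filterByExpr (minimum of 10 counts, 12780 of 30116 genes with a count kept), scaled by TMM factors and entered into a quasi-likelihood fit of the 3 groups in edgeR 4.0.16 with its robust option (R 4.3.3). Genes were called at an adjusted p-value under 0.05 in 3 contrasts, two-sided. Standard errors were obtained as log2FC/sqrt(F). CPM values are counts over TMM-normalized library sizes. Where a gene had no read, counting error alone allows 3. The labels do not say more than that the kidneys are separate samples, and p-values measure the spread between them. Over the 71 pairs of kidneys of 1 group, the chi-square statistic per degree of freedom was 1.73 to 7.84, so none was counted as a repeat.

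Genes outside the 7 were named by rule: per contrast, any called histone gene and the 4 lowest in p, any called gene and the 2 lowest in p of each pathway list, the 5 genes most like H4c9, and marker genes of lists that moved with a member. The rule admits more genes than are printed. Alternatives were RLE normalization, no filter, DESeq2 1.42.0, limma 3.58.1 (voom), fits of only the groups compared, a replicate block, edgeR without the robust option, near-identical genes summed, and each kidney left out. The fit was tested on simulated data. Python 3.11.15 read sequences from GENCODE and RefSeq tables. Proteins were not analysed here.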

Additional observations from a re-analysis of the deposited data

Results flagged for a closer look

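H4c9 differed between the MI groups. Its log2 fold change between 28d and 5d post-MI was 1.77, below sham at 5d and above sham at 28d. The gene was chosen with this pattern known, so the value is a description, and the call made on it supports nothing.

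H2ax, a replacement histone of the DNA damage response, had 17.7 CPM in sham kidney 7, and the next highest of the 8 sham kidneys had 14.9 CPM, a gap of 0.562 of the range of the group. Of 66 groups of kidneys examined for such a value, 1 was found, and chance gives about 1 in 20.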

How the results depend on the processing

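Of 642 values of the 7 genes under alternatives, 638 stayed within 1 SD and none that was called changed its sign. The other 4 came from summing near-identical genes, where H4c9 with all H4 genes gave a log2 fold change of 0.94 between 28d and 5d post-MI (and −0.42 and 0.51 against sham at 5d and 28d, within 1 SD), and H3f3a with H3f3b gave −0.13, 0.13 and 0.25 at 5d, 28d and between the times. Among 1259 values of the other named genes, 1251 kept their direction and side of the threshold and 7, those of H2bc6, came to pass it. Cdkn2d at 5d post-MI, with −0.12, gave 0.031 without sham kidneys 2 and 6, an alternative chosen after seeing the data. The cause was not tested.

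Over all genes, edgeR called 9 at 5d post-MI, 3 at 28d post-MI and 53 between the times. In this order the counts were 80, 94 and 160 without the filter, 36, 33 and 91 with DESeq2, 22, 11 and 63 with voom, 2, 31 and 26 from only the groups compared, 22, 8 and 68 without the robust option and 1, 1 and 53 without sham kidneys 2 and 6. Leaving out 1 kidney gave 1 to 38, 0 to 29 and 41 to 84, with the highest values without 5d kidney 1, sham kidney 8 and 5d kidney 1. Histone genes outside the 7 that were called went from 0 to 1 at 28d post-MI without the filter, and between the times to 3 without the filter, 2 with DESeq2, 1 without the robust option and 1 without sham kidneys 2 and 6. Leaving out 1 kidney gave 0 to 1, with 1 without sham kidney 6 or 28d kidney 6.

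Same-numbered kidneys did not deviate together. Their correlations were −0.10 to 0.05, −0.08 to 0.08 and −0.13 to 0.09 over 7, 6 and 5 pairs, and 1 kidney number in each comparison correlated best with its own number. With the replicate number as a block, 2, 24 and 80 genes were called, H4c9 in each comparison and 1 other histone gene between the times, H2bc6 (adjusted p = 0.0178 from edgeR).

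Between 19 and 174 reads of H4c9 per kidney limit its precision, and most other replication-dependent histone genes had too few reads to be tested.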
